A study of Mus musculus with 2 samples.

Results

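The histone genes are those that encode the linker histone H1 and the core histones H2A, H2B, H3 and H4, the proteins around which DNA is wound in the nucleosome. Their transcripts were measured here in mouse embryonic stem (ES) cells that lacked their own Baf53a and expressed either exogenous Baf53a or exogenous Baf53b. Members were chosen by name: a gene was taken when its RefSeq symbol began with Hist1h, Hist2h, Hist3h or Hist4h, or with H1f, H2ac, H2bc, H3c or H4c and digits. The gene table holds 76 such genes, of which 71 are protein coding. Of these, 51 genes were matched to 56 probes, out of 20823 named genes on the array, and the other 25 were not analysed here. H2aw, H2bu2 and H4f16 were matched through their older names Hist3h2a, Hist3h2ba and Hist4h4. The rule also takes linker histone genes, which are not core histone genes in the strict sense, and 4 of these, H1f0, H1f7, H1f8 and H1f10, lie outside the histone clusters. By type, 10 H1, 14 H2A, 11 H2B, 7 H3 and 9 H4 genes had a probe.

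Both Baf53 forms are actin-related subunits of the BAF (SWI/SNF) chromatin remodelling complex, Baf53a in proliferating cells and Baf53b in neurons. The cells were 1 clone of E14-derived ES cells in which both alleles of Baf53a carry a CRISPR mutation and a resistant Baf53a is kept on until tetracycline (Tet) is given. Baf53a-expressing and Baf53b-expressing Baf53a-deficient ES cells shared this clone, a medium with 15% FBS and LIF, transfection with a vector for Myc-tagged Baf53a or Baf53b, and 1 μg/mL Tet for 6 days. Total RNA of each condition was labelled with Cy3 and hybridised to 1 array, so that no difference could be tested against a spread between replicates.

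Most histone mRNA is made in S phase, when new DNA has to be packed. The canonical genes lie in clusters, have no introns, and give mRNA that ends in a stem-loop bound by SLBP in place of a poly(A) tail. Some members are also transcribed to a poly(A) site further downstream, and replication-independent variants outside the clusters give ordinary tailed mRNA throughout the cell cycle. The labelling kit primes from poly(A) tails, so that a signal from a canonical histone gene depends on how much of its RNA carries a tail. How much of each signal came from tailed RNA was not tested. Histone paralogs are near-identical, the probe sequences were not used here, and a probe may therefore have caught RNA of several genes of its type.

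Levels are given as the log2 processed signal, which is the brightness of a spot after the scanner software's background correction, with the 75th percentile of each array set to 0. The percentile corresponded to 1161 on the Baf53a array and to 1128 on the Baf53b array. Differences are Baf53b- minus Baf53a-expressing cells on the log2 scale. Each histone probe had 1 spot per array, and no histone spot was saturated or marked as an outlier. The software error of a difference was about 0.20 for most probes. The SD of a difference between single spots of the same probe, taken from 324 probes printed at least 5 times, was 0.274 in the dimmest of 5 signal groups of equal size and 0.119, 0.0799, 0.0664 and 0.0590 in the following groups. Both are technical errors within these arrays and say nothing of the spread between cultures.

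Of the 56 histone probes, 54 were well above background on both arrays (background 74.2% of 39411 probes), which covers 50 of the 51 genes. The H1f3 probe passed on the Baf53b array only (background 2.18%), none passed on the Baf53a array only (background 0.959%), and 1 of the 2 H4f16 probes passed on neither array (background 22.7%). H1f3 encodes a linker histone of the chromosome 13 cluster. Its level was -6.70 in Baf53b-expressing cells. In Baf53a-expressing cells the reading was -7.67, below the detection flag. Its Baf53b level was 1.32-fold above the lowest level well above background on the Baf53a array, and both readings were close to that limit. The difference between the readings was 0.97, with a software error of 0.64. Its direction follows from the flag, which it passed on the Baf53b array only.

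The histone genes differed little between the arrays. The median difference of the 54 probes was -0.05, with a lowest value of -0.32 and a highest of 0.29, beside -0.00134 over all 29247 probes well above background on both arrays. Below 0 lay 39 of the 54 (72.2%, background 50.3%) and above 0 lay 15 (background 49.7%). None was 2-fold apart in either direction (background 0.137% higher and 0.116% lower). At least 1.2-fold higher in Baf53b-expressing cells were 3 probes, those of H2bc21, H4c8 and H2bc23 (5.56%, background 10.5%). At least 1.2-fold lower was the H1f6 probe (1.85%, background 3.94%). Both shares were below the background, but the background depends on signal. In the dimmest of the 5 signal groups 28.1% of all probes were at least 1.2-fold higher and 10.4% lower. In the brightest group, which held 26 of the 54 histone probes, these shares were 1.76% and 1.16%. Each of the 4 probes came inside 1.2-fold under at least 1 other scaling. The differences of 5 probes, 9.26%, exceeded the software error (background 19.2%). The SD over the histone probes was 0.125, beside 0.206 over all probes.

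**Figure D1:**
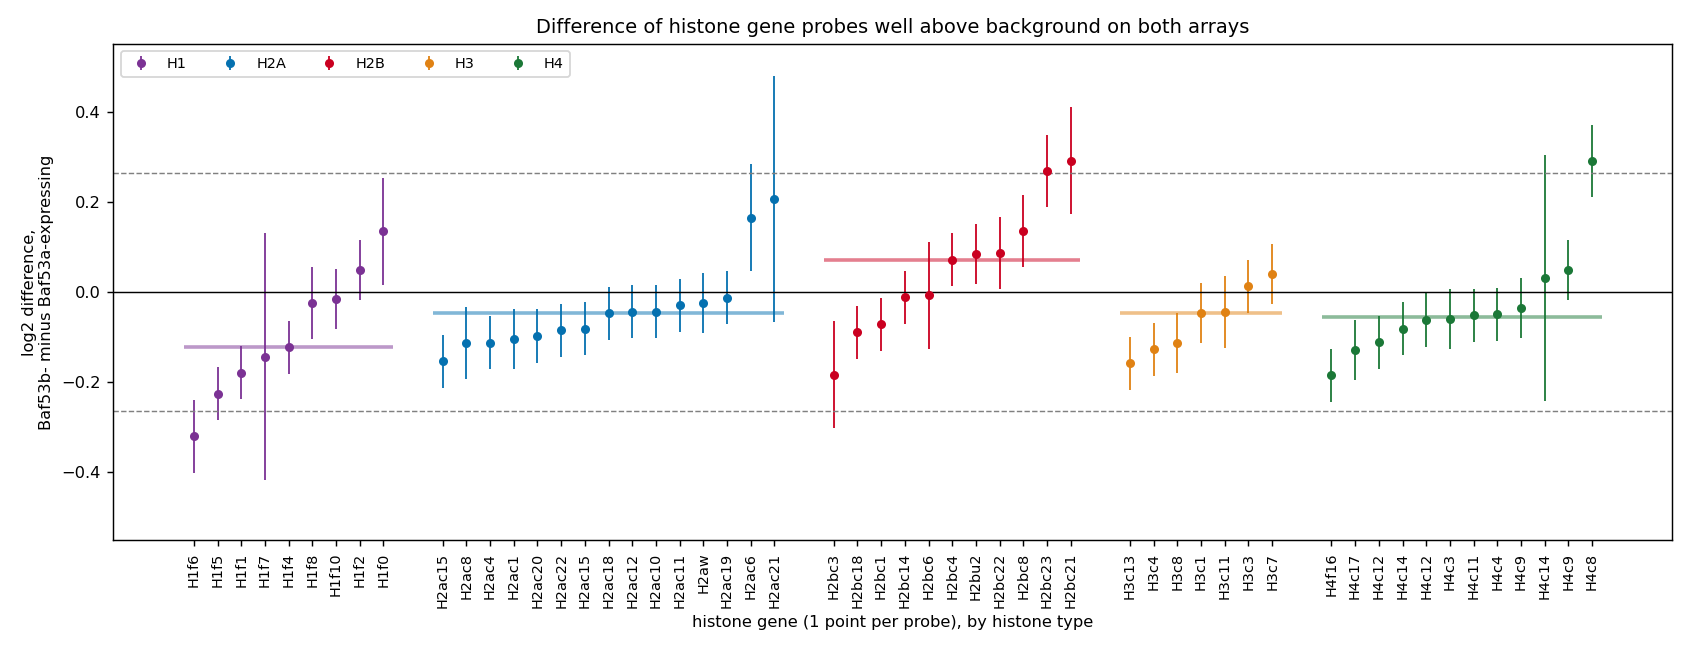
Log2 difference (vertical axis, Baf53b- minus Baf53a-expressing cells) of the 54 histone probes, 1 point each, sorted within each type along the horizontal axis. Vertical bars show the SD of a difference between single spots in the probe's signal group, thick lines the median of each type, and dashed lines 1.2-fold. H1 probes have the lowest median as processed here (not under quantile normalization or normexp) and H2B probes the highest, and 4 points lie beyond the dashed lines.

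**Figure D2:**
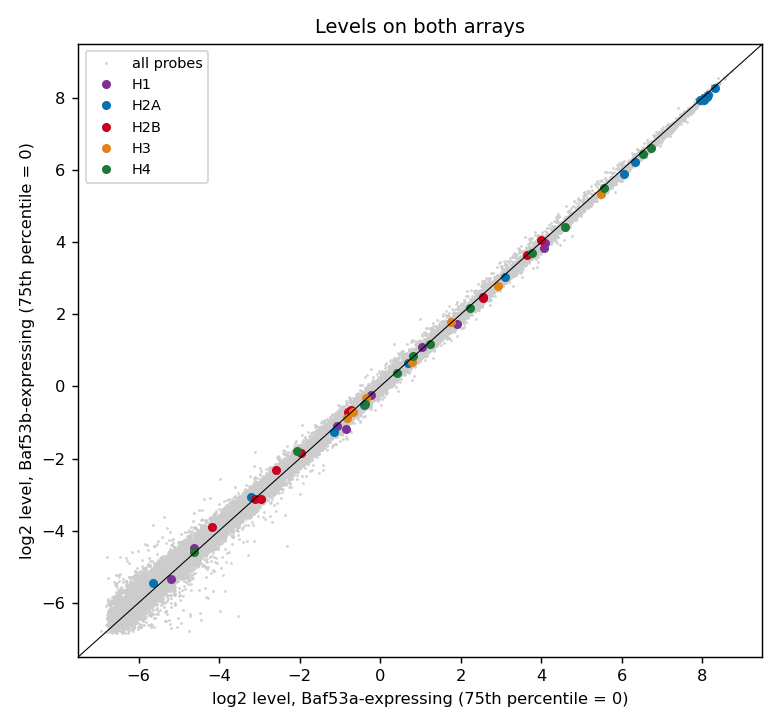
Log2 level of each histone probe in Baf53a-expressing (horizontal axis) and Baf53b-expressing cells (vertical axis), coloured by histone type, over all probes in grey. The diagonal marks equal levels, and the histone points follow it closely from the dimmest to the brightest.

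The linker histone H1, which binds where DNA enters and leaves the nucleosome, had a median of -0.12 over 9 probes, with 7 below 0 and 2 above. It was the lowest of the 5 types as processed here, but not under quantile normalization, where H3 was lower (-0.0602 against -0.0590), nor under normexp, where H1 was at -0.0060 and H2A, H3 and H4 were lower. It stayed below 0 under the other scalings. The testis-enriched H1f6 stood at -0.86 with Baf53a and -1.18 with Baf53b, a difference of -0.32, the lowest of the 54 probes. For H1f5, a canonical S phase linker histone, the levels were 4.06 and 3.84, a difference of -0.23. Both differences exceed the software error, and they are 4.01 and 3.83 spot SDs. H1f1 stood at 1.92 and 1.74 (-0.18) and H1f4, a linker histone that is abundant in many cell types, at 4.10 and 3.98 (-0.12). All 4 of these genes lie in the chromosome 13 cluster and were below 0 in every scaling run. In the same cluster, H1f2 stood at 1.04 and 1.09, a difference of 0.05 that was -0.0024 when the arrays were centred on the median. Outside the clusters, H1f0, the replacement linker histone of resting and differentiated cells, stood at -4.63 and -4.49 (0.13). H1f10 stood at -0.23 and -0.24 and the oocyte linker histone H1f8 at -1.06 and -1.09, each -0.02. The spermatid linker histone H1f7, one of the dimmest probes, stood at -5.19 and -5.34 (-0.14), 0.00217 under normexp.

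Promoters are shown for the highest and the lowest member with a promoter entry in H1, H2B and H4, the types that hold the 4 probes beyond 1.2-fold. The 150 bases before each start were taken from RefSeq promoters on GRCm38.p6 and are printed 5′ to 3′ along the gene's strand. Capitals mark matches on either strand to the octamer ATTTGCAT, to the CCAAT box and to a TATA box written as TATAAA. H1f0 has none of them in chr15:79028062-79028211 (plus strand), and H1f6 has 1 CCAAT in chr13:23695661-23695810 (plus strand).
H1f0: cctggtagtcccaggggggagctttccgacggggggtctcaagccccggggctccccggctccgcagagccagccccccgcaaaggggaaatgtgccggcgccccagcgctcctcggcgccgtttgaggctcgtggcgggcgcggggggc
H1f6: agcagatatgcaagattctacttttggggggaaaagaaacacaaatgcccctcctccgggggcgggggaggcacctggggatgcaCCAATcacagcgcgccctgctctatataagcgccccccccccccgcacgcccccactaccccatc

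The H2A probes, which report on a partner of the H2A-H2B dimer, lay slightly below 0 almost throughout. Over 15 probes of 14 genes the median was -0.05, with 13 below 0 and 2 above, and it was 0.00189 under cyclic loess. Of all probes 50.3% lay below 0, and 75.8% of those in the brightest signal group. After subtraction of the median of its signal group from each probe, 8 H2A probes lay below 0 and 7 above. The dimmest H2A probe, H2ac21, stood at -5.65 with Baf53a and -5.44 with Baf53b (0.21). H2ac6 stood at -3.22 and -3.06 (0.16). These were the only H2A probes above 0, and neither difference exceeded its software error. The lowest differences were those of H2ac15 and H2ac8. For H2ac15 the levels were 6.06 and 5.90 (-0.15), and its other probe stood at 8.16 and 8.07 (-0.08). H2ac8 stood at -1.15 and -1.26 (-0.11). H2ac4 stood at 6.33 and 6.21, also -0.11. A block of 7 H2A probes, those of H2ac10, H2ac11, H2ac12, H2ac19, H2ac20 and H2ac22 and the second H2ac15 probe, each had a level of at least 7. Their signals spanned 286152 to 373157 on the Baf53a array and 275580 to 351638 on the Baf53b array, and their differences -0.10 to -0.01. None of the 7 carried a saturation flag. H2ac18 stood at 3.09 and 3.04 (-0.05), H2aw at 0.69 and 0.66 (-0.02), and the testis-enriched H2ac1 at -0.40 and -0.51 (-0.11).

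The H2B probes formed the only type with a median above 0. It was 0.07 over 11 probes, with 6 above 0 and 5 below, and it stayed above 0 under every other processing, from 0.02 to 0.08. H2bc21 stood at -4.18 with Baf53a and -3.89 with Baf53b, a difference of 0.29. H2bc23 stood at -2.59 and -2.32 (0.27). These were the 2 highest H2B probes, both beyond the software error, and the spot SDs place them at 2.45 and 3.35. H2bc8 stood at -1.98 and -1.84 (0.13), H2bc22 at -0.80 and -0.71 (0.09) and H2bu2 at -0.73 and -0.65 (0.08). H2bc4, with unscaled signals of 18590 and 18973, differed by 0.07. These 6 H2B probes were above 0 in every scaling. On the other side, H2bc3 stood at -2.95 and -3.13 (-0.18) and H2bc18 at 2.55 and 2.46 (-0.09). The testis-enriched H2bc1 stood at 2.55 and 2.48 (-0.07), so that its H1, H2A and H2B counterparts of the male germ line, H1f6, H2ac1 and H2bc1, were all below 0. H2bc14 stood at 3.65 and 3.64 and H2bc6 at -3.12 and -3.13, each -0.01.

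The promoter of H2bc23 (chr13:21810200-21810349, minus strand) holds CCAAT at 2 places and no octamer in the bases shown. That of H2bc3 (chr13:23746584-23746733, plus strand) holds CCAAT at 3 places, 1 octamer and 1 TATAAA. H2bc21 and H2bc4 are named only.
H2bc23: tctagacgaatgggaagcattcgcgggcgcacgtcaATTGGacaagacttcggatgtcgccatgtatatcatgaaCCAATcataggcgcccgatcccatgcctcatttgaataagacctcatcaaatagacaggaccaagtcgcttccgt
H2bc3: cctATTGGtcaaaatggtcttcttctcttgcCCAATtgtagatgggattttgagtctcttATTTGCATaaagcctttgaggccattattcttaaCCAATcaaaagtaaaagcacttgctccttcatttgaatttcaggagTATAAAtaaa

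From 250 bases before to 50 after the start, on both strands, ATTTGCAT was present in 12 of the 46 histone promoters with an entry (26.1%), beside 1.75% of 27025 promoters in the table. All 12 belonged to H2A (7 of 14) and H2B (5 of 9), and none of the 10 H1, 5 H3 and 8 H4 promoters held it. The octamer is the known motif of POU factors such as Oct-1 (Pou2f1) in H2B promoters. CCAAT was present in 37 of 46 (80.4%, beside 37.9%), in all 14 H2A, 9 H2B and 5 H3 promoters. TATAAA was present in 26 (56.5%, beside 14.2%). Matches of different motifs may overlap and were counted separately. The median difference of the 12 genes with the octamer was -0.08 and that of 33 genes without it -0.05. Within H2B, 5 genes with the octamer had a median of -0.07 and 4 without it 0.09. A match describes the letters in this window, not binding.

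The H3 and H4 probes, which report on the tetramer at the centre of the nucleosome, had medians below 0. The median of the 7 H3 probes was -0.05, with 5 below 0 and 2 above. H3c13 stood at 2.93 with Baf53a and 2.78 with Baf53b (-0.16), and H3c4 at 5.48 and 5.35 (-0.13). H3c8 stood at 0.78 and 0.67 (-0.11), and these 3, with H3c1 (-0.05) and H3c11 (-0.04), were below 0 in every scaling. The 2 highest were H3c7, at -0.36 and -0.32 (0.04), and H3c3, at 1.77 and 1.78 (0.01). Both lay below 0 when the arrays were centred on the median, at -0.01 and -0.04, and no H3 probe was above 0 in every scaling.

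The median of the 12 H4 probes was -0.06, with 9 below 0 and 3 above. H4c8 stood at -2.08 with Baf53a and -1.79 with Baf53b, a difference of 0.29 or 3.64 spot SDs, and was the only H4 probe above 0 in every scaling. The brighter H4f16 probe stood at 4.60 and 4.42 (-0.19, 3.14 spot SDs), and H4c17 at -0.36 and -0.49 (-0.13). H4f16, the gene of the chromosome 6 cluster, was therefore the lowest of its type and H4c8, in the chromosome 13 cluster, the highest. The 2 H4c12 probes gave -0.11 and -0.06, the 2 H4c14 probes -0.08 and 0.03, and the 2 H4c9 probes 0.05 and -0.04. Probes of the same gene were thus between 0.0499 and 0.113 apart in the 4 genes with 2 probes above background, H2ac15 included. Those of H4c14 and H4c9 differed in sign. The H4c14 probe at 0.03 was dim, with levels of -4.63 and -4.60. Its difference was 0.114 spot SDs and lay below 0 in 3 of the 4 other scalings. H4c11 (-0.05), H4c4 (-0.05) and H4c3 (-0.06) made up the rest.

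Neither H4 promoter holds any of the 3 motifs in the bases shown, which are chr13:23530894-23531043 (plus strand) for H4c8 and chr6:136804432-136804581 (minus strand) for H4f16.
H4c8: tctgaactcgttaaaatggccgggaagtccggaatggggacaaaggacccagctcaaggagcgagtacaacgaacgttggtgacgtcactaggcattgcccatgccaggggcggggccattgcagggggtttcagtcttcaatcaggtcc
H4f16: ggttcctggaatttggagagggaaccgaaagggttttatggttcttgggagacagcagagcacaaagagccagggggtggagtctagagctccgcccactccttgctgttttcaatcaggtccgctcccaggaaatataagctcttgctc

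Histone probes with a mean level of at least 0 mostly had a difference below 0 (28 below, 4 above). The dimmer ones were evenly split (11 below, 11 above). Among all probes the median difference went from 0.10 in the dimmest of the 5 signal groups to -0.06 in the brightest, where 75.8% of probes lay below 0. Of the 54 histone probes, 26 (48.1%) were in that brightest group, with a median of -0.08 and 24 below 0. Set against the median of all probes there, 15 lay below it and 11 above. The 12 histone probes of the next group had a median of -0.03 (all probes -0.02) and the 8 of the middle group 0.03 (all probes 0.02). The 5 and 3 probes of the dimmer groups had medians of 0.14 and 0.03 (all probes 0.05 and 0.10). After subtraction of the median of its signal group from each probe, the median over the 54 was -0.02, with 30 below 0 and 24 above. By type it was then -0.06 for H1, -0.0055 for H2A, 0.07 for H2B, -0.06 for H3 and -0.02 for H4. This subtraction was chosen after the values were seen.

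**Figure D3:**
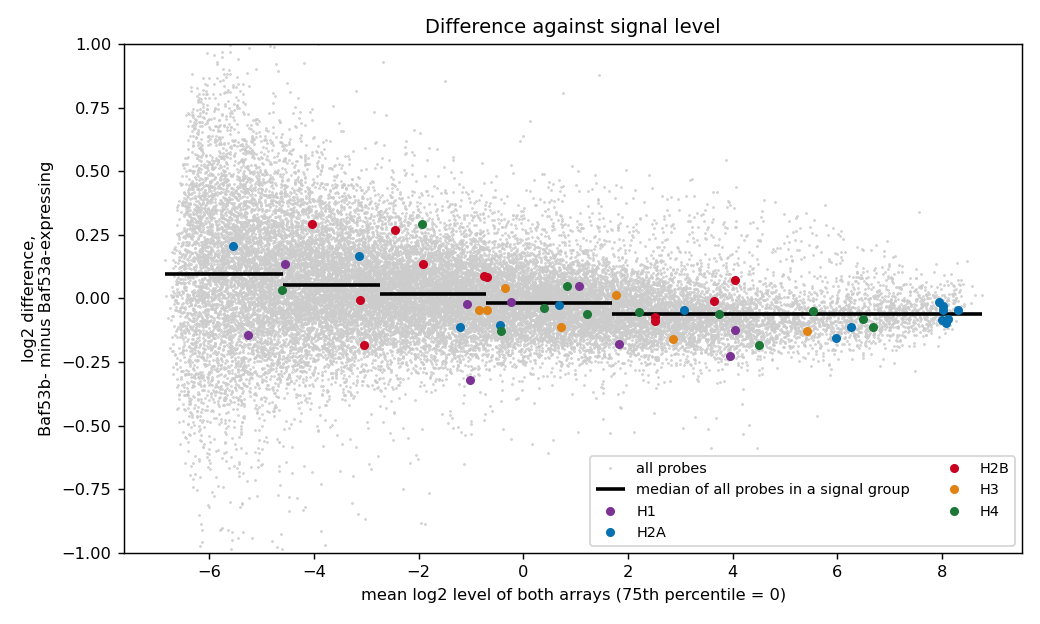
Log2 difference (vertical axis) against the mean log2 level of both arrays (horizontal axis), histone probes coloured by type over all probes in grey. Black lines give the median of all probes in each of 5 signal groups, from 0.10 in the dimmest to -0.06 in the brightest. The bright H2A, H3 and H4 points scatter around the last line, from -0.12 (H4f16) to 0.08 (H3c3) after subtraction of that median. Probes beyond 1 in either direction are outside the axis.

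Differences of more than 2 spot SDs, a limit also chosen after the values were seen, were found for 11 of the 54 probes, 20.4% (background 22.4%). Of these, 8 were lower in Baf53b-expressing cells (background 11.3%) and 3 higher (background 11.1%). The 8 were H1f6, H1f5, H4f16, H1f1, H3c13, H2ac15, H3c4 and H1f4, and the 3 were H4c8, H2bc23 and H2bc21. After subtraction of the signal group's median, 5 of the 11 remained beyond the limit, those of H1f6, H1f5, H4f16, H4c8 and H2bc23. The probes of H2bc4 and H2bc3 passed it only after the subtraction, on opposite sides of 0.

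Position and gene length, examined after the values were seen, gave the following. The 38 probes of the chromosome 13 cluster had a median of -0.05 (28 below 0, 10 above) and the 9 of chromosome 3 also -0.05 (6 below, 3 above). H2A and H2B genes often lie head to head, and in 6 neighbouring pairs both genes were measured. In 4 of the 6 the H2B gene had the higher difference, and in 3 the signs were equal. H2ac22 and H2bc22 gave -0.09 and 0.09, H2ac8 and H2bc8 -0.11 and 0.13, H2ac20 and H2bc21 -0.10 and 0.29, and H2ac1 and H2bc1 -0.11 and -0.07. The H2A gene was higher in the other pairs, H2ac6 and H2bc4 with 0.16 and 0.07, and H2ac4 and H2bc3 with -0.11 and -0.18. The 9 genes that span more than 1000 bases in RefSeq had a median of 0.07 and a median level of -2.45, and the 45 probes of shorter genes a median of -0.06 and a median level of 2.21. Within H2B, 5 longer genes had a median of 0.09 and 6 shorter ones -0.04. Signal and gene span moved together, and the part of either in the differences was not tested.

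Replication-independent variants outside the clusters, 17 probes of 9 genes above background on both arrays, had a median of -0.06. Of the 17, 15 lay below 0 (88.2%, background 50.3%) and 2 above. None was 1.2-fold apart (background 10.5% higher and 3.94% lower). Most were in the brightest signal group, where 75.8% of all probes lay below 0 and the median of all probes was -0.06. Macroh2a1, the H2A variant with a macrodomain, gave -0.23, -0.01 and -0.02 with its 3 probes, and Macroh2a2 gave -0.10. H2az2, a form of the H2A.Z variant found at promoters, gave 0.06 and -0.11, and H2az1 gave -0.03 and -0.09. H2ax, whose phosphorylation marks DNA breaks, gave -0.09, H2aj -0.06 and -0.11, and the centromeric Cenpa -0.01. The H3.3 genes H3f3a and H3f3b gave 0.00396 and -0.03, and -0.13, -0.02 and -0.16. H2ab1 and Hils1 passed on neither array.

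The list for histone gene transcription and 3-prime processing, which also holds genes that act on histone mRNA later, showed no common direction. Over 43 probes of 29 genes the median was 0.00203, with 22 above 0 and 21 below. None was 1.2-fold apart (background 10.5% higher and 3.94% lower). The probes of Slbp, the stem-loop binding protein, stood at 0.74 and 0.16 with Baf53a and at 0.86 and 0.37 with Baf53b (0.12 and 0.20). Casp8ap2, a component of the histone locus body, gave -0.000886 and -0.02, and its partner Npat was not well above background on either array. Hinfp, which activates H4 genes, had the highest value, 0.25, and its other probe gave -0.11. Cpsf4, a subunit of the cleavage and polyadenylation machinery, had the lowest, -0.22, and its other probe 0.09. Pou2f1 gave 0.10 and 0.03.

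Histone chaperones, 53 probes of 31 genes, had a median of -0.02 (23 above 0, 30 below). Rbbp4, a subunit of the chaperone CAF-1 and other complexes, gave 0.59 with a dim probe and -0.03 with a bright one, and the lowest value was -0.19 for Mms22l. Genes of DNA replication and S phase, 52 probes of 46 genes, had a median of -0.04 (15 above 0, 37 below). Ccne1, cyclin E1, gave the highest, 0.29, with 0.07 from its other probe, and E2f3 the lowest, -0.34, with -0.07 from its other probe. Thus 71.2% of these probes and 72.2% of the histone probes lay below 0. Both of these shares are over probes of all levels. Among all probes with a mean level of at least 0, 69.2% had a difference below 0. Of the 32 histone probes of that range 28 did, which is a larger share. However, 26 of the 32 were in the brightest signal group, where 75.8% of all probes and 24 of the 26 lay below 0. At a mean level of at least 4, 79.6% of all probes and 15 of 16 histone probes did. The variants outside the clusters had 15 of 17 below 0, so that a high share was not particular to the histone members. At mean levels below 0 the difference was below 0 for 40.7% of all probes and for 11 of 22 histone probes.

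**Figure D4:**
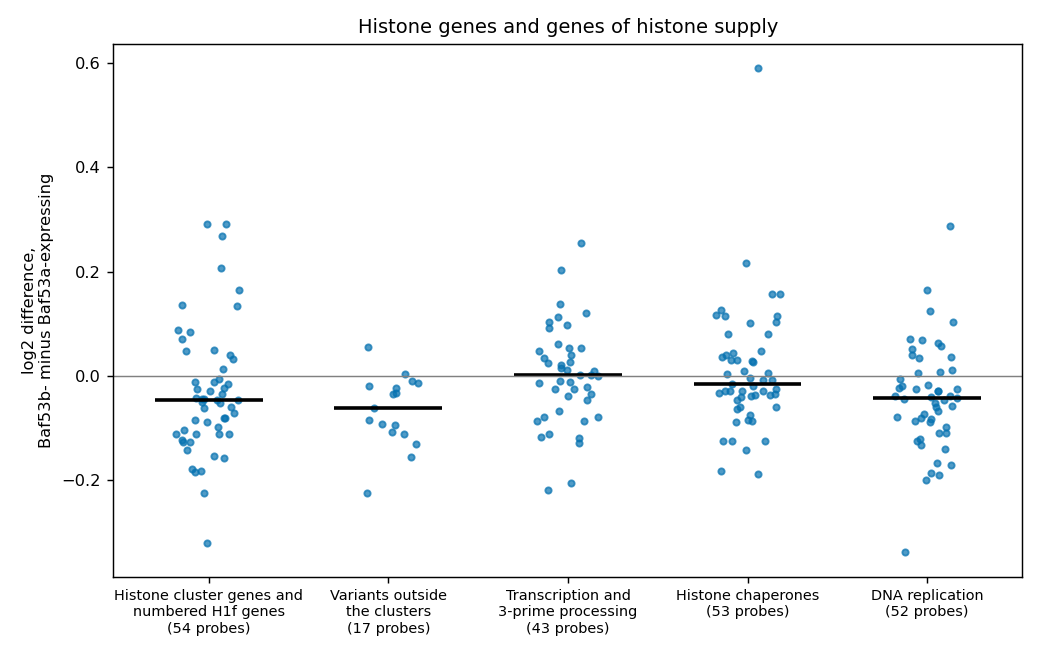
Log2 difference (vertical axis) of each probe well above background on both arrays, for the histone genes and 4 lists of related genes along the horizontal axis, with a black line at each median. The points overlap widely, with medians from -0.06 for the variants to 0.00203 for transcription and 3-prime processing, and 1 Rbbp4 probe stands apart at 0.59.

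The labels and the cell type were examined through other genes. Actl6b, the gene of Baf53b, passed the detection flag on the Baf53b array alone. Its level there was 14.5-fold above the lowest level well above background on the Baf53a array. Actl6a, which encodes Baf53a, had signals of 3806 and 3600 and differed by -0.04, so that its probe does not tell the conditions apart and the check of the labels rests on Actl6b. All 10 ES cell markers were well above background on both arrays (13 probes, median -0.09). Of the 13 probes, 10 lay below 0 (76.9%, background 50.3%). Most of them were in the brightest signal group, where 75.8% of all probes lay below 0. All 9 probes of 7 primitive endoderm markers were above 0 (background 49.7%), from 0.20 to 0.40, with a median of 0.30. At least 1.2-fold higher were 6 of them (background 10.5%). The summed unscaled signal of the 9 probes was 24983 and 29813, of which the Lama1 probe alone gave 22007 and 26327. The medians were 0.12 for 6 of 11 neuron probes, 0.02 for 6 of 7 mesoderm probes and 0.19 for 4 of 5 trophoblast probes. Above 0 were 4 of these neuron probes, 3 of the mesoderm probes and all 4 trophoblast probes (background 49.7%). Another 3 neuron probes, of Dcx, Map2 and Rbfox3, passed on the Baf53b array only (background 2.18%), and 2 on neither array (background 22.7%). The levels of the 3 there, -6.80 to -6.27, were close to the detection limit. The part of a shift in cell types in the histone values was not tested. In bulk RNA, fewer cells of a type and less RNA per cell cannot be told apart. The 8 spike-in controls that were well above background had a median difference of 0.08, from 0.02 to 0.29.

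**Figure D5:**
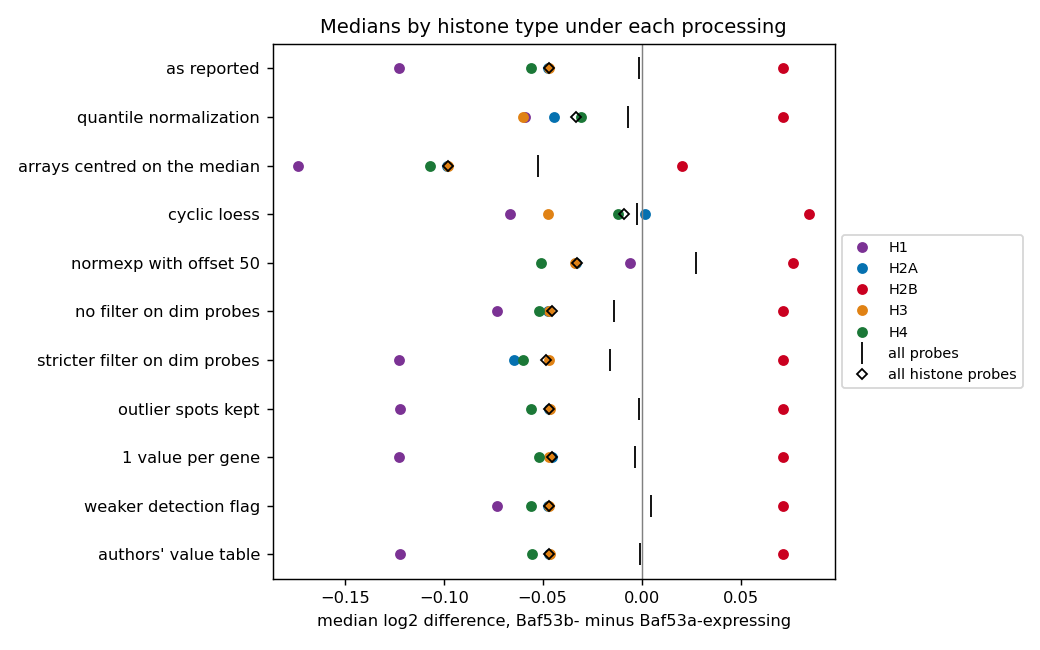
Median log2 difference (horizontal axis) of each histone type, of all histone probes and of all probes under each way of processing the arrays (vertical axis). H2B stays above 0 and H1, H3 and H4 below it in every row, while H2A crosses 0 under cyclic loess.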

How the data were processed

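Gene expression was measured on 2 single-colour arrays of the Whole Mouse Genome design, hybridised with Cy3-labelled cRNA made from 0.2 μg of total RNA per condition. The arrays shared a slide and a scan. Per the file headers, the authors extracted the images with Agilent Feature Extraction 11.0.1.1 on a design annotated on mm9 and deposited the intensity of each spot after background subtraction and detrending, with other flags per spot, without normalization between arrays. The deposited value table holds a ratio per probe, the mean signal over 1 number per array (1160 and 1126, within 0.1% for 30479 probes). It was used as an alternative.

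Control spots and outlier spots (non-uniform or population) were not used. Log2 intensities were averaged per probe, less the 75th percentile of their array. The flag for signal well above background had to be set on at least 50% of a probe's spots. A probe that passed on 1 array only was set against the lowest signal well above background on the other array (8.45 in Baf53a- and 9.75 in Baf53b-expressing cells). Names came from RefSeq accessions matched to a GRCm38.p6 gene table, and promoters come from RefSeq on the same assembly. The planned comparison of proteins was not run. Members and lists were chosen with earlier results of these data known. Genes were named by a rule: the 2 highest and 2 lowest of each type, members seen on 1 array or with several probes, the extremes of each list and the variants outside the clusters. Others were named after their values were seen. The precision is limited by 1 array per condition and 1 spot per histone probe, and there was no test. The steps were tested on simulated arrays. Python 3.11.15 with numpy 2.4.6 and pandas 2.3.3, and R 4.3.3 with limma 3.58.1, were used.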

Additional observations from a re-analysis of the deposited data

How the results depend on the processing

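No paired analysis was possible because each condition had a single array, and for the same reason no replicate could be left out. Other scalings were quantile normalization, arrays centred on the median, cyclic loess and normexp with an offset of 50. Other choices were dim probes unfiltered or filtered more strictly, outlier spots included, a mean per gene, a weaker flag for detection and the value table of the authors. The median over the histone probes stayed below 0 in all of them, from -0.10 to -0.0090. The H2A median was 0.0019 under cyclic loess. Histone probes at least 1.2-fold higher, 3 as reported, were 1 under quantile normalization, 0 with the arrays centred on the median, 1 under cyclic loess, 0 under normexp with offset 50, and 4 without a filter on dim probes or with the weaker flag. Those at least 1.2-fold lower, 1 as reported, were 2 with the arrays centred on the median and 0 under normexp. The cause was not tested. Other medians by type kept their sign, and counts at 2-fold stayed at 0. Of the 54 probes, 16 had another sign under at least 1 of the 4 scalings (6, 5, 9 and 5 in the order above), and the one farthest from 0 as reported was H1f7, at -0.14. A difference in a dim probe is limited by signal over background, and without replicates differences of this size cannot be told apart from technical ones.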
